A study of Mus musculus with 96 samples.

Results

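The 3 mouse Period genes, Per1, Per2 and Per3, were followed in the skin of mice that differed in which tissues had a circadian clock. They were taken as the rows with these names, 3 of the 22497 genes in the deposited tables. Period proteins are the repressors of the circadian feedback loop. The activators BMAL1 (encoded by Arntl) and CLOCK switch on Period and Cryptochrome genes through E-boxes in their control regions. PER and CRY proteins then accumulate, enter the nucleus and shut the activators off, which closes a loop of about a day. PER1 and PER2 are needed for the loop, whereas mice without PER3 keep a rhythm with small changes. Per1 and Per2 are also known to be induced by signals from outside the cell, among them glucocorticoids and cyclic AMP, so a Period transcript can follow the day without a clock in the cell that makes it.

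Polyadenylated RNA of back-skin epidermis was sequenced from 96 female C57BL/6 mice aged 8 weeks, each sampled after 156 to 176 h of constant darkness. There were 4 genotypes, 6 circadian times (CT) from CT0 to CT20 in steps of 4 h, and 4 biological replicates in each of the 24 groups. RERE mice were Arntl stopFL/stopFL and carried both drivers, K14Cre as tg/wt and Syt10-Cre as tg/wt, so that brain and epidermis were reconstituted. EpiRE mice were also Arntl stopFL/stopFL, with K14Cre as tg/wt and Syt10-Cre as wt/wt, and had the epidermis reconstituted. BRE mice shared the Arntl stopFL/stopFL alleles, with K14Cre as wt/wt and Syt10-Cre as tg/wt, and had the brain reconstituted. WT mice were Arntl wt/wt and carried the drivers too, with K14Cre as wt/tg and Syt10-Cre as tg/wt. The stop in stopFL is removed by Cre, and all tissues outside the range of the drivers stayed without a working Arntl in RERE, EpiRE and BRE. The keratin 14 promoter is active in keratinocytes, so the T cells and Langerhans cells of the epidermis are not its target. The series was designed to set the daily rhythms of the epidermis side by side between mice that differ in which tissues have a clock.

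Library sizes, worked back from the deposited values, were 11.1 to 19.9 M reads. Per1, Per2 and Per3 had at least 941, 31 and 208 recovered reads in every library. Levels are given as log2 RPKM (RPKM is reads per length of transcript and per library size), so a step of 1 is a doubling. The tissue label held for keratinocytes: 6 of 6 keratinocyte markers had a mean above 1 RPKM in each genotype. Of 6 fibroblast, endothelial and adipocyte markers 0 did. By genotype, 1 of 6 muscle, 1 to 2 of 6 melanocyte, 2 to 3 of 6 sebaceous gland and 4 to 5 of 6 hair follicle markers did. Hair follicle markers summed to 3370 to 5910 RPKM and sebaceous gland markers to 81 to 224 RPKM per library. T cell markers summed to 19.3 to 134 RPKM and Langerhans cell markers to 109 to 284 RPKM per library, against 14600 to 24000 RPKM for keratinocyte markers. Arntl, the targeted gene, had a mean of 3.89 log2 RPKM in RERE, 4.16 in EpiRE, 3.88 in BRE and 3.88 in WT. The deposited value is 1 per gene and does not separate reads before and after the stop, so it is no check of the genotype. One EpiRE library, CT0 replicate 1, stood apart from its group (median correlation of 0.958 with the other libraries, against 0.981 in the median library). For EpiRE and BRE the CT of each library was read from BIOCYCLE column names alone, because the library codes of the JTK_CYCLE tables of these 2 genotypes run out of order. In whole epidermis, fewer cells of a type and less RNA per cell cannot be told apart.

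Per1 (ENSMUSG00000020893) lies on the forward strand of chromosome 11 at 69095217 to 69109960, Per2 (ENSMUSG00000055866) on the reverse strand of chromosome 1 at 91415982 to 91459324, and Per3 (ENSMUSG00000028957) on the reverse strand of chromosome 4 at 151003652 to 151044665 (GRCm38, the build also called mm10, GENCODE vM21). Per3 lies inside the annotated span of Camta1 on the same strand, with 0 shared exon bases. Proximal promoters are shown for Per1 and Per3. That of Per2 was not analysed, because the reference used held no promoter sequence of it. The promoters shown are RefSeq sequences (GRCm38.p6), from 250 bases before to 50 after an annotated start. Both Per1 windows lie inside the GENCODE span given above, and none at its outer end, 69095217, is shown. First and second give the order of the windows shown. Both strands were searched for the E-box CACGTG, the D-box TTATGTAA bound by DBP and its relatives, and TGACG, the core of the cyclic AMP response element. Matches are in capitals.

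Per1, first start, chr11:69098699-69098998, + strand: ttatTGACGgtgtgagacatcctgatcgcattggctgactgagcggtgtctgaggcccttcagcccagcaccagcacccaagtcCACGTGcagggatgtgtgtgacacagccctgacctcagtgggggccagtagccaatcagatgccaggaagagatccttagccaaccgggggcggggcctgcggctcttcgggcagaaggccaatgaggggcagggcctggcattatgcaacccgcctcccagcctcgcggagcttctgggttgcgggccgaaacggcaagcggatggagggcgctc
Per1, second start, chr11:69099902-69100201, + strand: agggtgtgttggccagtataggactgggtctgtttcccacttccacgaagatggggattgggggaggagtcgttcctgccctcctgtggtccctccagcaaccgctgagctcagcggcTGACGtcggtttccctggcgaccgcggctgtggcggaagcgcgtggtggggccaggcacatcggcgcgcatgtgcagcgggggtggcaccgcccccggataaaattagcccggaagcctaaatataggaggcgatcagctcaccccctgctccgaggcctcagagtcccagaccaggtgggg
Per3, chr4:151044616-151044915, - strand: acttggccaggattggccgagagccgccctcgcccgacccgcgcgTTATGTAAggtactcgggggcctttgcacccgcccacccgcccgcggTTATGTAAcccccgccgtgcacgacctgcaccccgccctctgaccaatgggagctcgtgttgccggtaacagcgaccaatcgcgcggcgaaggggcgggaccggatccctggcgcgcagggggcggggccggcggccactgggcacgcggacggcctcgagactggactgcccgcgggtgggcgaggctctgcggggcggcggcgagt

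The window of the first Per1 start holds an E-box 166 bases before the start and a TGACG 246 bases before it. In the window of the second start a TGACG lies 132 bases upstream. Per3 holds a pair of D-boxes, 205 and 158 bases before its start, and no CACGTG in this window. Of 32851 promoter windows of 300 bases, 7.15% held the E-box, 0.938% the D-box and 20.8% TGACG. The full element TGACGTCA (1.79% of windows) and AGAACA (19% of windows), part of the element bound by the glucocorticoid receptor, matched in none of the 3 windows, 2 of Per1 and 1 of Per3. No motif overlaps another in these windows, and a match describes letters and not a bound site.

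In mice with clocks in brain and epidermis or in all tissues, the 3 transcripts oscillated, and they differed in size. Per2 was the gene with the deepest trough. In RERE epidermis it had -1.0, -1.65, -1.89 and -1.38 log2 RPKM at CT0 and 4.66, 4.79, 4.70 and 4.27 at CT12. In WT epidermis Per2 had -0.25, -1.56, 0.57 and -0.90 at CT0 and 4.77, 4.91, 5.0 and 4.77 at CT12. The lowest and highest times, picked by their means, did not overlap in either genotype. Their means lay 68-fold apart in RERE and 42.1-fold apart in WT. The fitted 24 h cosine had an amplitude (from the mean to the peak, in log2 RPKM) of 2.87 ± 0.243 in RERE and 2.607 ± 0.197 in WT (SE, n = 24 each). Both passed limma's moderated F test with Benjamini-Hochberg adjustment over all genes tested (adjusted p = 4.66e-08 in RERE and 4.5e-09 in WT).

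Per3 followed with a smaller swing and a higher floor. It had 1.71, 0.62, 0.94 and 1.70 log2 RPKM at CT0 in RERE and 4.70, 4.93, 5.21 and 4.63 at CT12. In WT it had 1.51, 1.09, 1.19 and 1.54 at CT0 and 5.01, 5.13, 4.65 and 4.99 at CT12. These times did not overlap in either genotype. The amplitude was 1.839 ± 0.121 in RERE (limma adjusted p = 6.16e-10) and 1.78 ± 0.108 in WT (limma adjusted p = 8.86e-11).

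Per1 was the most abundant of the 3 and the one with the shallowest rhythm. In RERE it had 4.59, 4.06, 4.24 and 3.63 log2 RPKM at CT0 and 5.93, 6.61, 5.51 and 5.82 at CT8. In WT it had 4.51, 4.40, 5.62 and 4.12 at CT0 and 6.16, 5.54, 6.98 and 6.18 at CT8. The 2 times did not overlap in RERE and overlapped in WT, where CT0 replicate 3 lay above the lowest CT8 library. Per1's amplitude was 0.83 ± 0.147 in RERE (limma adjusted p = 0.00117) and 0.669 ± 0.174 in WT (limma adjusted p = 0.0154). In RERE 19.4% of the genes tested were called rhythmic, and in WT 33.1%. No difference of rhythm between RERE and WT was called for a Period gene (limma adjusted p = 0.94 for Per1, 0.972 for Per2 and 0.877 for Per3), a comparison in which 0% of genes were called by limma. Before adjustment 837 of 11051 genes had a p under 0.05, and limma-voom called 0. The interval of the amplitude difference RERE minus WT ran from -0.29 to 0.61 for Per1, from -0.35 to 0.88 for Per2 and from -0.26 to 0.38 for Per3 (95% interval from the SE).

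The peaks lay close together, in the second part of the rest phase and around its end. In RERE the fitted peaks were at CT11.2 ± 0.68 for Per1, CT12.6 ± 0.32 for Per2 and CT11.7 ± 0.25 for Per3 (SE in h). In WT they were at CT10.1 ± 0.99 for Per1, CT12.5 ± 0.29 for Per2 and CT11.2 ± 0.23 for Per3. Per3 peaked before Per2 by 0.8 ± 0.3 h in RERE and 1.3 ± 0.3 h in WT (jackknife SE over libraries). Per1 minus Per2 was -1.4 ± 0.8 h in RERE and -2.4 ± 1.1 h in WT. Per1 minus Per3 was -0.5 ± 0.8 h in RERE and -1.1 ± 1.1 h in WT, within about 1 SE of 0.

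**Figure D1:**
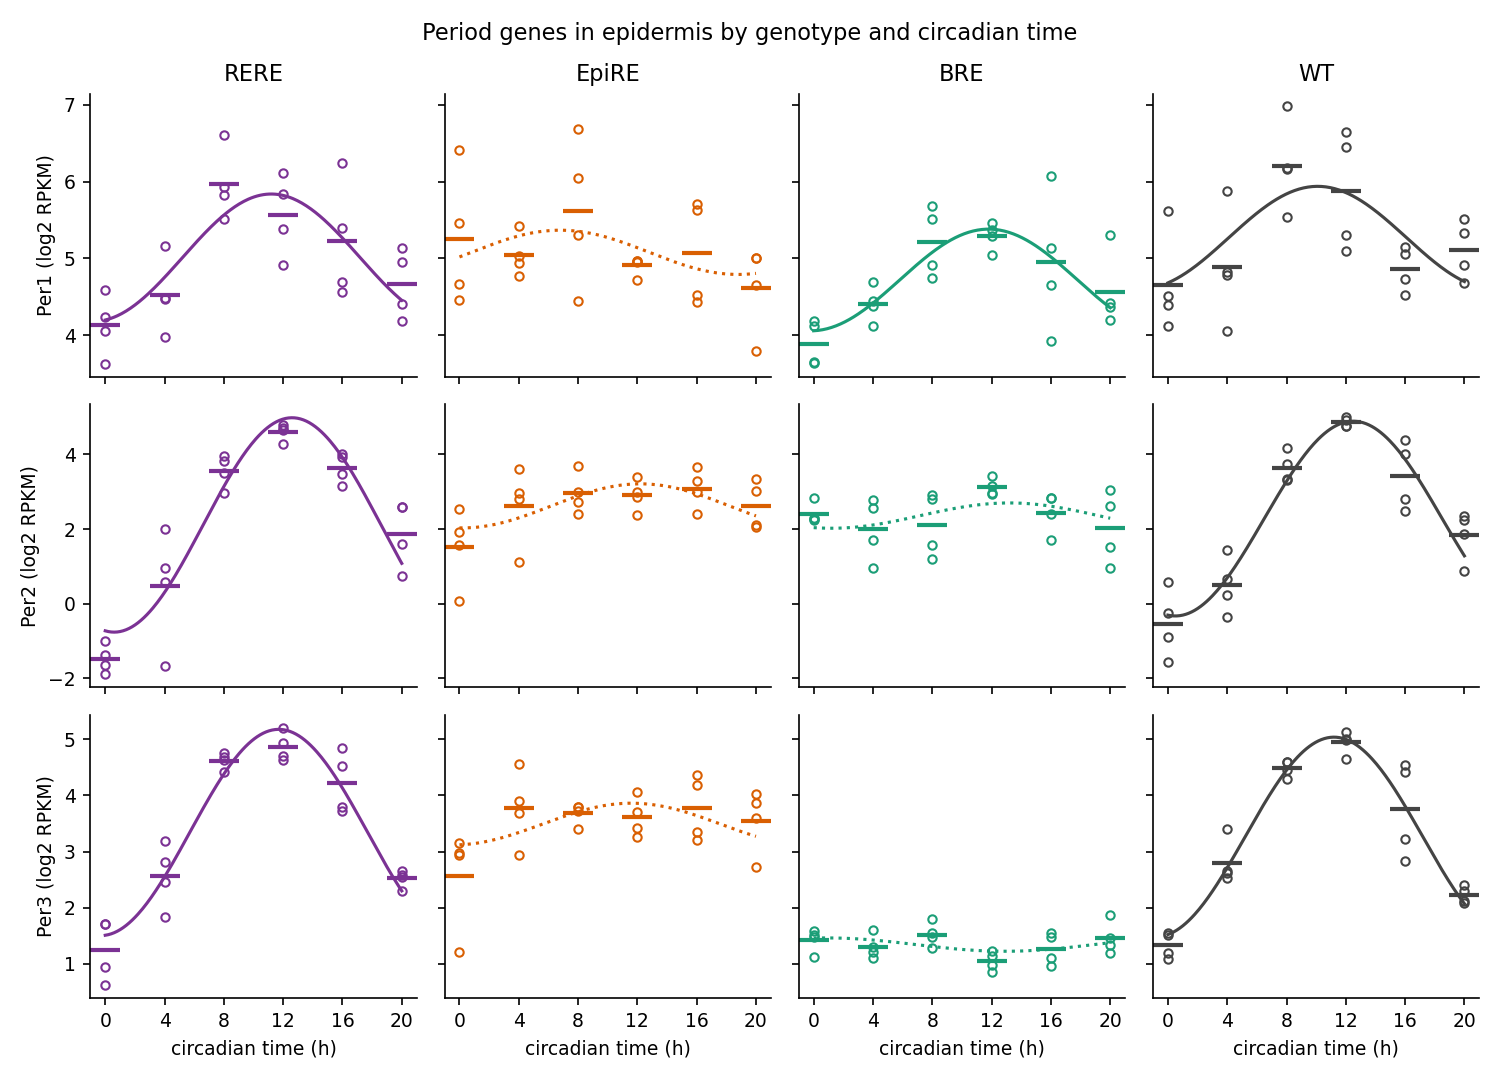
Log2 RPKM of Per1, Per2 and Per3 (rows) against circadian time in h, by genotype (columns). Circles are libraries, bars are means of 4, and the curve is the fitted 24 h cosine, solid where it was called and dotted where it was not; Per2 and Per3 are solid in RERE and WT, and Per1 is solid in RERE, BRE and WT.

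With the brain as the one reconstituted tissue, Per1 had a called daily rhythm in the epidermis, whereas no rhythm of Per2 or Per3 was called. Per1 in BRE had 3.64, 4.18, 4.12 and 3.65 log2 RPKM at CT0, below every library of CT8, CT12 and CT20. At CT8 it had 4.74, 4.92, 5.51 and 5.68, and at CT12 it had 5.37, 5.05, 5.46 and 5.29. CT16 was the most scattered time, with 6.08, 4.65, 3.92 and 5.14. The means of CT12 and CT0 lay 2.64-fold apart. The amplitude was 0.662 ± 0.127 with a peak at CT11.8 ± 0.73 (limma adjusted p = 0.0281), in a genotype where 1.14% of genes were called. By p value Per1 ranked 40 and by amplitude 32 among the 10970 genes tested in BRE.

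The call stood near the threshold. Leaving out single BRE libraries, 18 of 24 fits passed and 6 did not, with adjusted p from 0.00395 to 0.0609 and amplitudes from 0.62 to 0.72. Without replicate 1, 2 or 4 of every time it did not pass either (adjusted p of 0.0884, 0.0891 and 0.229). The call was also lost with CT as a factor (adjusted p = 0.102), with a 12 h harmonic added (adjusted p = 0.115) and with a spread shared over the genotypes (adjusted p = 0.0504). In the authors' deposited tables Per1 in BRE has a JTK_CYCLE p of 0.000441 with a q of 0.113, and a BIOCYCLE p of 0.000408 with a q of 0.566. For Per1 in WT the authors' deposited tables give a JTK_CYCLE q of 0.152 and a BIOCYCLE q of 0.12. Per1's amplitude in BRE lay between 0.59 and 0.81 in these fits. The rhythm rests on the CT in the column names, as given above.

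Per2 in BRE had 2.82, 2.29, 2.28 and 2.25 log2 RPKM at CT0 and 2.94, 3.43, 2.96 and 3.16 at CT12. CT12 lay above CT0 in every library, and the lowest mean was at CT4, with 1.72, 2.56, 2.78 and 0.96. The amplitude of 0.339 ± 0.189 did not pass (limma adjusted p = 0.502). Per3 moved little. Its 24 BRE libraries lay between 0.86 and 1.87 log2 RPKM with a median of 1.32. The lowest mean was at CT12, with 1.23, 1.14, 0.86 and 0.98, the time at which RERE and WT had their highest. The highest mean in BRE was at CT8, whose libraries did not overlap those of CT12, so times picked as extremes can separate without a called rhythm. Per3's amplitude in BRE was 0.119 ± 0.073 (limma adjusted p = 0.558).

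Set against WT, the amplitude in BRE was 99% ± 32 of the WT value for Per1, 13% ± 7.32 for Per2 and 6.69% ± 4.12 for Per3 (SE; a flat gene too has a fitted amplitude above 0). The interaction of genotype and rhythm tested this difference. It was called for Per2 (amplitude 0.339 in BRE and 2.607 in WT, adjusted p = 7.72e-07) and for Per3 (0.119 in BRE and 1.78 in WT, adjusted p = 5.44e-14), in a comparison where limma called 5.69% of genes. For Per1 it was not (0.662 in BRE and 0.669 in WT, adjusted p = 0.664), and the interval of the amplitude difference ran from -0.43 to 0.42. The interval is wide beside the amplitudes themselves. Per1's peak in BRE minus that in WT was 1.8 ± 1.3 h. Between RERE and BRE the calls fell on the same 2 genes, with amplitudes of 2.87 in RERE and 0.339 in BRE for Per2 (adjusted p = 1.12e-06), 1.839 in RERE and 0.119 in BRE for Per3 (adjusted p = 4.03e-13), and no call for Per1 (0.83 in RERE and 0.662 in BRE, adjusted p = 0.825). RERE minus BRE called 4.19% of genes.

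**Figure D2:**
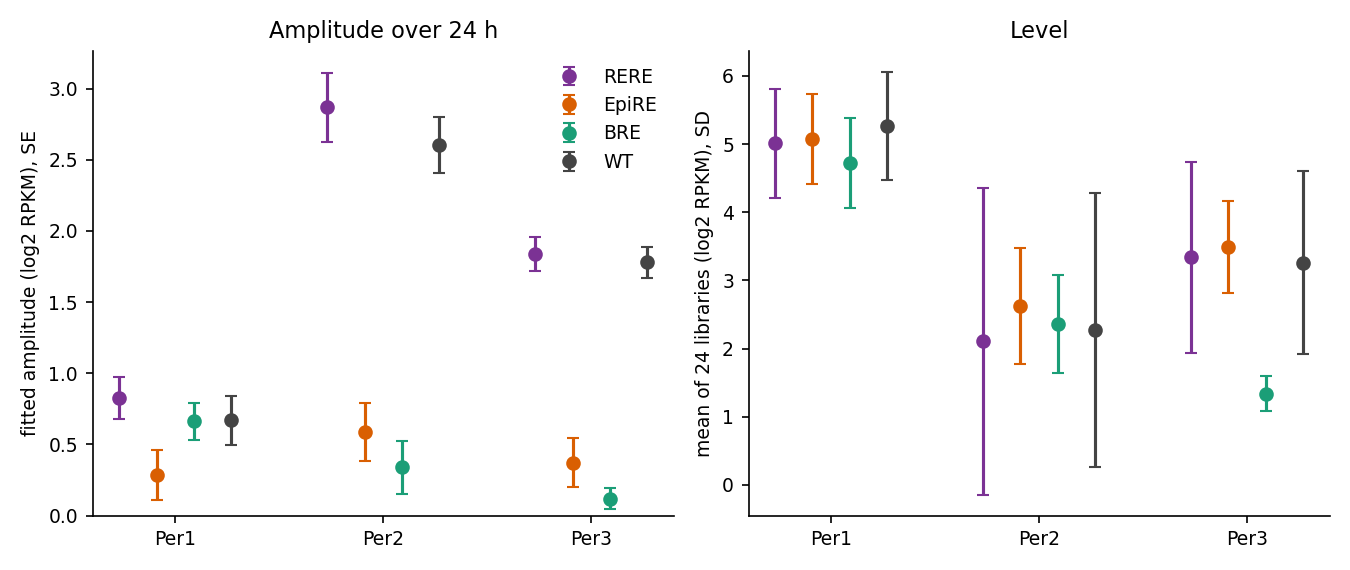
Left, fitted 24 h amplitude (log2 RPKM, SE) and right, mean of 24 libraries (log2 RPKM, SD) of each Period gene in RERE, EpiRE, BRE and WT. In BRE the Per1 amplitude is near that of WT while those of Per2 and Per3 are below 0.4, and Per3 is the one gene whose level is lowest in BRE by more than 1.

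Comparing the genes within each library addresses the contrast itself. The contrast was proposed with results of these data known, so its tests describe it and give no independent support. The log2 difference Per1 minus Per3 followed the day in BRE with an amplitude of 0.78 ± 0.15 and a peak at CT12.0 (permutation test, p = 0.00039, adjusted p = 0.000669 over 12 tests). In WT the same difference had an amplitude of 1.16 ± 0.22 and its peak at CT23.8 (permutation adjusted p = 0.0002), so its time course was turned round. The amplitude of Per1 was the larger of the pair in BRE (0.662 for Per1 and 0.119 for Per3) and the smaller in WT (0.669 for Per1 and 1.78 for Per3). The difference Per1 minus Per2 did not follow the day in BRE (amplitude 0.36 ± 0.21, permutation p = 0.258, adjusted p = 0.282), while in WT it did (2.11 ± 0.20, peak CT1.2, permutation p = 1e-05, the smallest these permutations can give). The rhythm of Per1 in BRE is therefore not shown to be larger than that of Per2 in the same libraries. Per3 minus Per2 was not called in BRE either (amplitude 0.46 ± 0.24, permutation adjusted p = 0.233).

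**Figure D3:**
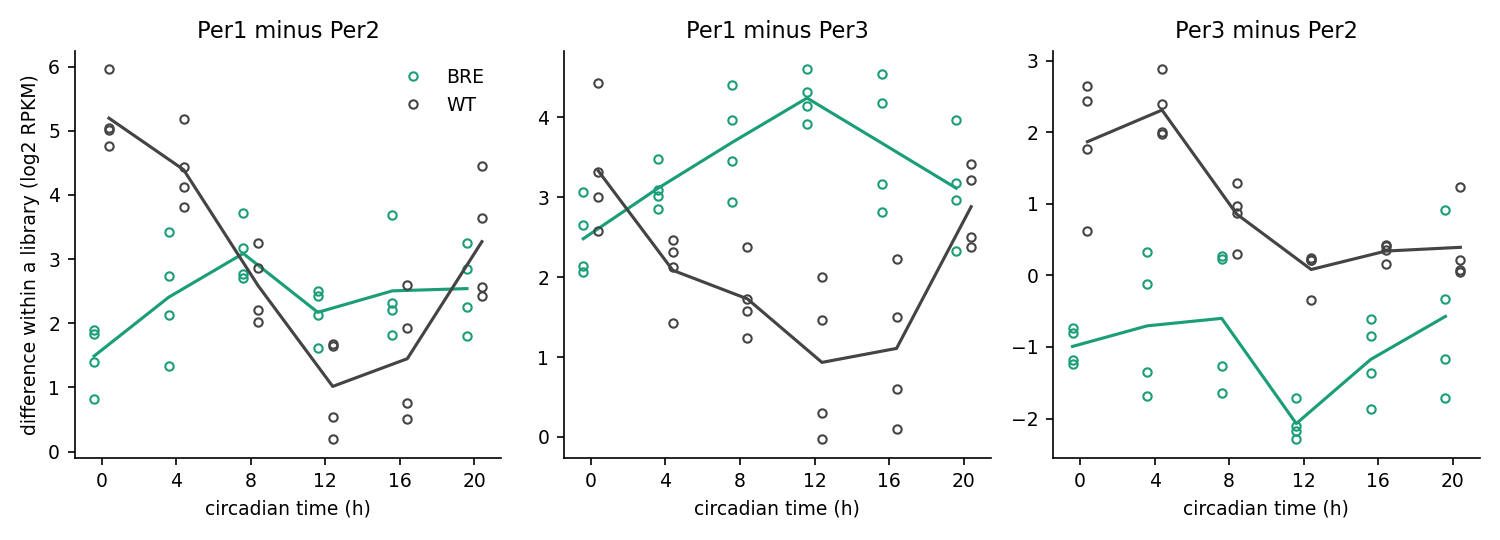
Difference within a library (log2 RPKM) of Per1 minus Per2, Per1 minus Per3 and Per3 minus Per2 against circadian time in h, for BRE and WT. Circles are libraries and lines join the means of 4; Per1 minus Per3 is highest at CT12 in BRE and lowest there in WT.

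Levels over the day separated Per3 from the other two. Per1 averaged 5.01 ± 0.80 log2 RPKM in RERE, 5.08 ± 0.66 in EpiRE, 4.72 ± 0.66 in BRE and 5.27 ± 0.79 in WT (SD, n = 24 each). Per3 averaged 3.34 ± 1.40 in RERE, 3.49 ± 0.68 in EpiRE, 1.34 ± 0.26 in BRE and 3.26 ± 1.34 in WT. Per3 fell in BRE to 0.264 of the WT level (BRE minus WT -1.92 ± 0.22, limma adjusted p = 2.9e-09). It was also higher in RERE than in BRE by 2 ± 0.23 (adjusted p = 3.41e-09) and higher in EpiRE than in BRE by 2.16 ± 0.14 (adjusted p = 9.32e-17). At CT0 the mean of Per3 was 1.42 in BRE and 1.33 in WT, and at CT12 it was 1.05 in BRE and 4.95 in WT. Per3 in BRE thus sat at the WT trough all day, and at 5 of 6 times the BRE and WT libraries did not overlap.

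Per1 fell in BRE by a smaller amount, to 0.685 of WT (BRE minus WT -0.55 ± 0.15, limma adjusted p = 0.00388). The mean was lower at 5 of 6 times, with the lowest difference, -1.0, at CT8, but BRE and WT libraries overlapped at every time. Without replicate 3 the difference was -0.34 and did not pass (adjusted p = 0.105), nor did it with the mean of the glucocorticoid response genes described further on as a covariate (-0.21, adjusted p = 0.0786). Per1's differences RERE minus BRE (0.29 ± 0.14, adjusted p = 0.105) and EpiRE minus BRE (0.36 ± 0.17, adjusted p = 0.0978) were not called. Levels differed in 36.9% of genes between BRE and WT, in 27.5% between RERE and BRE and in 34% between EpiRE and BRE, so a call of level in BRE was common. Markers of cell types were called in both directions. Lower in BRE than in WT were 2 of 5 Langerhans cell markers tested, which is near the 36.9% of all genes. So were 2 of 4 T cell markers (with 1 higher), 4 of 5 hair follicle markers and 2 of 2 melanocyte markers. Of 6 keratinocyte markers 2 were higher and 1 lower, and of 3 sebaceous gland markers 1 was higher. Summed T cell markers had a median of 64.9 RPKM in BRE and 52.5 RPKM in WT. The part of cell types in the Period levels was not tested.

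Per2 averaged 2.11 ± 2.25 log2 RPKM in RERE, 2.62 ± 0.85 in EpiRE, 2.36 ± 0.72 in BRE and 2.28 ± 2.01 in WT (SD, n = 24 each), and no difference of its level was called. Its time points tell more than its mean. BRE minus WT was 2.95 at CT0, where BRE lay above every WT library, and -1.74 at CT12, where it lay below every WT library. Per2 in BRE stood between the trough and the peak of WT, whereas Per3 stood at the trough. On a linear scale the order of the means was another, with 9.35 RPKM in RERE, 7.03 in EpiRE, 5.69 in BRE and 10.1 in WT, because the high times then weigh more. No difference of level among RERE, EpiRE and WT was called for a Period gene, and limma called 2.14% of genes in RERE minus WT, 2.23% in EpiRE minus WT and 0.00906% in RERE minus EpiRE.

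Per1 had the highest RPKM of the 3 in 24 of 24 libraries of RERE, EpiRE and BRE and in 23 of 24 of WT, where Per3 was above it in 1. It made up 66.1% ± 15.9 of the summed Period RPKM in RERE, 64.6% ± 12.5 in EpiRE, 76.1% ± 7.75 in BRE and 69.4% ± 16.7 in WT (SD, n = 24 each). The order of the other two turned in BRE. Per3 was above Per2 in 23 of 24 libraries in RERE, 24 of 24 in EpiRE, 4 of 24 in BRE and 23 of 24 in WT. Per3 held 7.97% ± 3.47 of the sum in BRE and 18.7% ± 8.59 in WT.

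With the epidermis as the one reconstituted tissue, no Period gene had a called rhythm. Per1 in EpiRE had 6.41, 5.46, 4.67 and 4.46 log2 RPKM at CT0 and 6.68, 5.30, 4.45 and 6.05 at CT8, 2 times that overlapped. Its amplitude was 0.288 ± 0.175 (limma adjusted p = 0.671). Per2 in EpiRE had 2.53, 1.57, 0.07 and 1.91 at CT0 and 2.39, 3.66, 3.28 and 3.00 at CT16, with an amplitude of 0.59 ± 0.205 (adjusted p = 0.355). Per3's amplitude was 0.372 ± 0.174 (adjusted p = 0.514). Without the library that stood apart the amplitudes were 0.34 for Per1, 0.64 for Per2 and 0.36 for Per3, with none called (adjusted p of 0.471, 0.34 and 0.531). In EpiRE limma called 0% of 11061 genes and limma-voom 0, while 1397 had a p under 0.05 before adjustment. Per3 was the Period gene whose level differed between EpiRE (3.49) and BRE (1.34), as given above.

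Between EpiRE and WT the rhythm of Per2 (adjusted p = 0.000155) and Per3 (adjusted p = 0.000206) differed, in a comparison where limma called 1.57% of genes, and that of Per1 was not called (adjusted p = 0.445). Between RERE and EpiRE the same 2 genes differed (adjusted p = 0.000104 for Per2 and 0.000155 for Per3, with 1.05% of genes called). Per1 had an amplitude of 0.83 in RERE and 0.288 in EpiRE, a difference with an unadjusted p of 0.00971 that did not pass over all genes (adjusted p = 0.223). For EpiRE minus BRE no Period gene was called (adjusted p of 0.532 for Per1, 0.915 for Per2 and 0.595 for Per3), in a comparison where limma called 0% of 11002 genes and limma-voom 0, while 941 had a p under 0.05 before adjustment. The Per1 rhythm called in BRE and not in EpiRE is thus not shown to differ between them, with amplitudes of 0.288 in EpiRE and 0.662 in BRE and an unadjusted p of 0.0204.

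The spread between mice sampled at the same CT was called different for Per3 between EpiRE and BRE. The mean absolute deviation of Per3 from the CT mean was 0.41 in EpiRE and 0.17 in BRE (difference 0.24, permutation p = 0.00023, adjusted p = 0.00414 over 18 tests). It was 0.29 in RERE and 0.27 in WT, and no other of the 18 comparisons of spread passed. The EpiRE against BRE difference did not pass without replicate 2 (adjusted p = 0.0734) or without replicate 3 (adjusted p = 0.192). At CT0 of EpiRE replicate 3 had 1.20 log2 RPKM and the other libraries 2.94 to 3.16.

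Per2 and Per3 moved together from mouse to mouse in RERE and EpiRE. Within a CT, Per3 correlated with Per2 across libraries with r = 0.68 and rho = 0.66 in RERE (permutation adjusted p = 0.00294 for r and 0.00726 for rho, over 12 tests) and with r = 0.85 and rho = 0.83 in EpiRE (permutation adjusted p = 0.00048 for r and 0.0006 for rho). In WT r was 0.67 (permutation adjusted p = 0.05, just under the threshold before rounding) and rho 0.56 (permutation adjusted p = 0.143). In BRE r was -0.29 and rho -0.32 (permutation adjusted p = 0.461 for r and 0.344 for rho). Without the 2 libraries farthest from the median of Per3, r was 0.58 in RERE (permutation p = 0.00288), 0.72 in EpiRE (permutation p = 0.00072), -0.06 in BRE (permutation p = 0.797) and 0.55 in WT (permutation p = 0.0509). In EpiRE the pair therefore held together in single mice, although neither gene had a called rhythm over CT. Whether the correlations differ between genotypes was not tested. Per1 with Per2 and Per1 with Per3 passed in 0 of 4 genotypes, by r or by rho, with permutation adjusted p of at least 0.151, and at an unadjusted p under 0.05 there were 0 as well. The largest of these was Per1 with Per2 in BRE (r = 0.44, rho = 0.49, permutation adjusted p = 0.17 for r and 0.151 for rho).

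**Figure D4:**
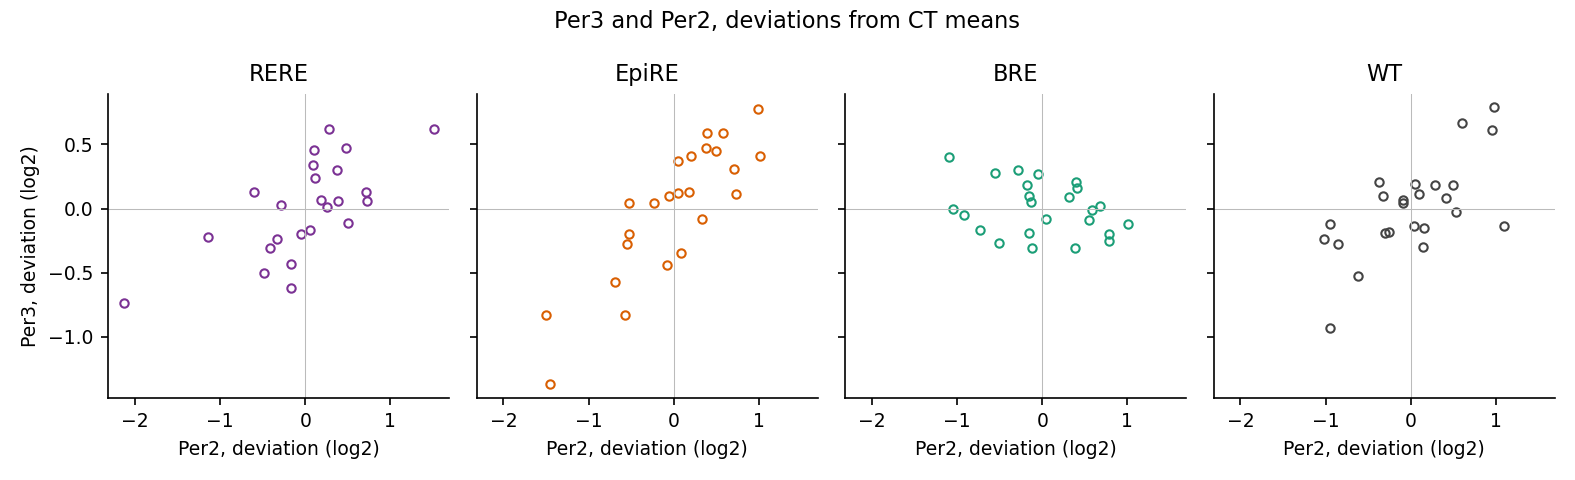
Deviation of Per3 (vertical, log2 RPKM) against deviation of Per2 (horizontal, log2 RPKM) from their means at the same CT, by genotype, 24 libraries each. Per3 and Per2 go up together in RERE (r = 0.68), EpiRE (r = 0.85) and WT (r = 0.67) and not in BRE (r = -0.29).

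The rest of the loop went the way of Per2 and Per3. Of 17 genes of the clock loop and its direct targets, 13 of 16 tested were called rhythmic in RERE, 0 of 16 in EpiRE, 0 of 15 in BRE and 15 of 16 in WT. Their median amplitude was 1.05 in RERE, 0.32 in EpiRE, 0.1 in BRE and 1.13 in WT, beside 0.1, 0.07, 0.07 and 0.12 for all genes tested in the same 4 genotypes. Among the 15 tested in BRE, the 2 with the largest amplitude there were the nuclear receptor Nr1d2 (0.16 ± 0.08, adjusted p = 0.434) and the repressor Bhlhe40 (0.14 ± 0.11, adjusted p = 0.674), both far under the 0.662 of Per1. Rhythm differed between BRE and WT in 12 of 16 loop genes, beside 5.69% of all genes. For the 13 kinases, phosphatases, ubiquitin ligase subunits and cofactors that act on PER protein, 2 of 12 tested were called in RERE, 0 in EpiRE, 0 in BRE and 2 in WT, which is not above the 19.4% of all genes in RERE and 33.1% in WT. Btrc, a ubiquitin ligase subunit that recognises phosphorylated PER, had the largest amplitude of this list in BRE (0.18 ± 0.07, adjusted p = 0.267).

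Some genes known to be induced by glucocorticoids were called rhythmic beside Per1 in BRE. Of 12 such genes 3 were called in RERE, 0 in EpiRE, 4 in BRE and 9 in WT, beside 19.4%, 0%, 1.14% and 33.1% of all genes in the same 4 genotypes, and their median amplitude was 0.33 in RERE, 0.25 in EpiRE, 0.23 in BRE and 0.42 in WT. The 4 called in BRE were Tsc22d3, which encodes the glucocorticoid-induced leucine zipper (0.74 ± 0.13, peak CT12.5, adjusted p = 0.0198), the receptor chaperone Fkbp5 (1.01 ± 0.22, peak CT12.5, adjusted p = 0.0433), the transcription factor Zbtb16 (0.77 ± 0.16, peak CT11.8, adjusted p = 0.0392) and glutamine synthetase Glul (0.75 ± 0.13, peak CT11.5, adjusted p = 0.0198). Their peaks lay within 1 h of that of Per1 in BRE, CT11.8. The cosines fitted to the rest of the list in BRE, none called, peaked from CT4.3 (Dusp1) to CT19.1 (Ddit4). Peaks of all genes called in BRE were not compared. In EpiRE the amplitudes were 0.26 for Tsc22d3, 0.15 for Fkbp5, 0.38 for Zbtb16 and 0.25 for Glul, and none was called. The rhythm of 0 of the 12 genes was called different between BRE and WT, in a comparison where limma called 5.69% of genes. In level 6 of 12 were lower in BRE than in WT and 0 higher (median -0.26, beside -0.05 for all genes), in a comparison where 36.9% of all genes were called.

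Per1 also followed these genes from mouse to mouse. Within a CT, Per1 correlated with the mean of the 12 genes with r = 0.73 and rho = 0.60 in RERE, r = 0.78 and rho = 0.80 in EpiRE, r = 0.80 and rho = 0.83 in BRE, and r = 0.84 and rho = 0.86 in WT. The permutation adjusted p of r was 0.0131 in RERE, 0.00216 in EpiRE, 0.00528 in BRE and 0.00036 in WT, over 36 tests of 3 genes with 3 lists in 4 genotypes. That of rho was 0.0417 in RERE, 0.00468 in EpiRE, 0.00054 in BRE and 0.00054 in WT. These 36 tests were chosen after seeing the data, so they describe a relation and give no independent support. They include those with immediate early and heat shock genes given below. Without the 2 farthest libraries r was 0.49 in RERE (permutation p = 0.0507), 0.80 in EpiRE (permutation p = 0.0004), 0.73 in BRE (permutation p = 0.00037) and 0.81 in WT (permutation p = 8e-05), so in RERE it did not pass without those 2 libraries. For Per2 and Per3 the relation to the list was called in none of the 4 genotypes, with r from -0.28 to 0.23 and permutation adjusted p of at least 0.492 for r and 0.304 for rho. With the list mean added as a covariate, a fit chosen after seeing the data, the amplitude of Per1 was 0.11 in BRE (limma adjusted p = 0.892), 0.27 in WT (adjusted p = 0.212) and 0.55 in RERE (adjusted p = 0.00851). The list holds the 4 rhythmic genes named above, so this fit removes the part of Per1 that shares their time course, and the source of that shared part was not tested.

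**Figure D5:**
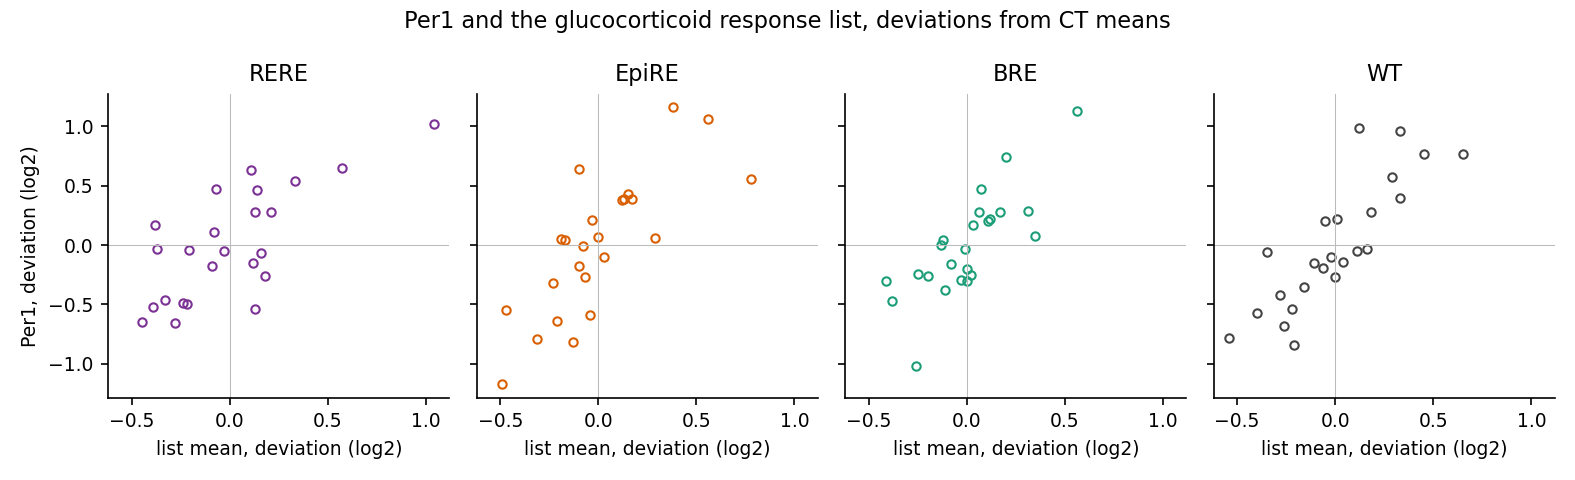
Deviation of Per1 (vertical, log2 RPKM) against deviation of the mean of 12 glucocorticoid response genes (horizontal, log2 RPKM) from their means at the same CT, by genotype, 24 libraries each. Per1 is higher where the list is higher in each genotype, with r = 0.73 in RERE, 0.78 in EpiRE, 0.80 in BRE and 0.84 in WT.

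Immediate early genes respond within minutes to growth signals, cyclic AMP or handling of tissue. Of 12 such genes 2 were called in RERE, 0 in EpiRE, 0 in BRE and 3 in WT, no more than the 19.4% and 33.1% of all genes in RERE and WT would give, and the cosine fitted to their mean peaked at CT3.2 in RERE, CT3.6 in EpiRE, CT3.4 in BRE and CT2.8 in WT, with amplitudes of 0.30, 0.31, 0.11 and 0.25 in these 4 genotypes. The 2 with the largest amplitude in BRE were Ier5 (0.21 ± 0.07, adjusted p = 0.183) and the zinc finger factor Egr1 (0.2 ± 0.13, adjusted p = 0.587). With the mean of this list as a covariate Per1 in BRE had an amplitude of 0.68 (limma adjusted p = 0.0251). This fit too was chosen after seeing the data. A list mean with an amplitude of 0.11 in BRE can remove little of a rhythm, so the part of these genes was not tested by it. Within a CT, Per1 followed the list in WT by r (r = 0.56, permutation adjusted p = 0.0458) and not by rho (rho = 0.51, permutation adjusted p = 0.0926), and without the 2 farthest libraries r was 0.44 (permutation p = 0.0506). In BRE Per1's r was 0.15 (permutation adjusted p = 0.765). Per3 ran against the list in WT (r = -0.58, rho = -0.63, permutation adjusted p = 0.0405 for r and 0.0417 for rho), and r was -0.57 without 2 libraries (permutation p = 0.0432). In BRE Per3's r was -0.47, not called (permutation adjusted p = 0.106), and -0.63 without 2 libraries (permutation p = 0.00327). Per3's r was -0.40 in RERE (permutation adjusted p = 0.406) and 0.00 in EpiRE (permutation adjusted p = 0.991). Whether the genotypes differ was not tested.

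Heat shock genes, which encode chaperones, were the list that Per2 followed in BRE. Within a CT, Per2 correlated with their mean with r = 0.69 and rho = 0.71 in BRE (permutation adjusted p = 0.012 for r and 0.0063 for rho, over the 36 tests), and r was 0.64 without the 2 farthest libraries (permutation p = 0.00301). In the other genotypes r was 0.05 in RERE, -0.09 in EpiRE and 0.11 in WT, with permutation adjusted p of 0.863 each, and the difference between genotypes was not tested. Per3 ran against this list in RERE (r = -0.55, permutation adjusted p = 0.0405) and WT (r = -0.44, permutation adjusted p = 0.0405), and by rho it passed in WT (rho = -0.56, permutation adjusted p = 0.0417) and not in RERE (rho = -0.48, permutation adjusted p = 0.108). Without the 2 farthest libraries r was -0.38 in RERE (permutation p = 0.0663) and -0.48 in WT (permutation p = 0.0239). Of the 12 heat shock genes 1 was called rhythmic in RERE, 0 in EpiRE, 1 in BRE and 8 in WT. Of all genes tested, 19.4% were called in RERE, 0% in EpiRE, 1.14% in BRE and 33.1% in WT. The heat shock gene called in BRE was the chaperone Hsp90aa1 (0.27 ± 0.05, peak CT16.3, adjusted p = 0.0312), later than Per1 in BRE (CT11.8).

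The genes most like each Period gene over the 24 means of genotype and CT, among 11025 genes, were not the same for the 3. The means of Per1 correlated with those of Per2 by r = 0.64 and of Per3 by r = 0.68, and Per2 with Per3 by r = 0.68. Most like Per1 was the cell cycle kinase Wee1 (r = 0.89), followed by Dnajb13, Med13l, Peli2 and Klf13 (r from 0.82 to 0.85). Wee1 had an amplitude of 0.69 in RERE, 0.10 in EpiRE, 0.43 in BRE and 0.58 in WT. Most like Per2 was the tenascin Tnxb (r = 0.93), then Mtrr, Pgm2l1, Cipc and Zfp281 (r from 0.90 to 0.91), and Cipc encodes an inhibitor of CLOCK. Tnxb had an amplitude of 0.41 in RERE, 0.08 in EpiRE, 0.10 in BRE and 0.52 in WT.

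Per3 stood closest to the lipid transfer protein gene Pitpnm2 (r = 0.96), the chemokine Cx3cl1 (0.94), and Ttc19, Thsd4 and the clock repressor Ciart (0.93 each). Like Per3, all 5 had their lowest mean level in BRE: Ciart averaged 1.02 log2 RPKM in RERE, 0.95 in EpiRE, -0.47 in BRE and 1.03 in WT. The means used to pick these genes include those of BRE, so a low level there is favoured by the choice. Across the 24 BRE libraries alone, among 10967 genes, Per1 was most like the transcription factor Ets2 (r = 0.92), then Trp53inp1 (0.87), Tsc22d3 (0.83), Csrnp2 (0.83) and the repressor Bcl6 (0.82). Their fitted peaks in BRE lay between CT11.8 and CT12.6, and picking them by likeness to Per1 favours peaks near its own. These likenesses are descriptions over points that share libraries and CT.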

How the data were processed

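Epidermal polyadenylated RNA of 96 mice was sequenced. The submitters' processing notes name build mm10, featureCounts 1.6.0, edgeR, HISAT2 2.2.1, Trimmomatic 0.36 and SAMtools 1.3.1. The authors deposited log2 RPKM per gene and library, in which genes without reads sit at a floor, and their own p-values and q-values from JTK_CYCLE and BIOCYCLE. Per the labels' protocols the adaptors carried UMIs; their use in counting is not given in the sources. A further 96 columns of per-library values match no label and were not used.

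Read numbers were worked back to whole reads for 22485 of 22497 genes (99.73% of values within 0.1 read of a whole number). The other 12 genes were not recovered. Library sizes, worked back from the same values, were 11.1 to 19.9 M reads with a median of 15.2 M. Genes averaging 0 log2 RPKM or more were tested with limma 3.58.1 (R 4.3.3), with a trend, per genotype for a 24 h cosine and sine, and per pair of genotypes for their interaction and for the level given CT. P-values were adjusted by Benjamini-Hochberg over all genes tested, and called under 0.05. Differences of peak between genes carry a jackknife standard error over libraries. Those between genotypes combine the standard errors of the separate cosine fits. Ratios, spread and correlations were tested with 100000 permutations of libraries (SciPy 1.17.1). Both kinds of test were run on simulated data first. Members and lists were chosen with earlier results of these data known. Genes were named as members, as the genes of a list called in BRE or, where none was, those with the largest amplitudes there, or as the 5 most alike by Pearson's r. Alternatives were a replicate block, CT as a factor, a 12 h harmonic, other scaling, pseudocount and filter, limma-voom on recovered reads, and leaving out replicates. The p-values measure the spread between mice, which are the replicates.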

Additional observations from a re-analysis of the deposited data

Results flagged for a closer look

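In 4 of 72 groups of 4 libraries, 1 library stood far from the others by Dixon's ratio, which chance gives in about 1 group in 20. Per1 in EpiRE at CT12 had 4.72 log2 RPKM in replicate 3, below 4.96 to 4.97 in the others. Per2 in BRE at CT0 had 2.82 in replicate 1, above 2.25 to 2.29. Per3 in EpiRE at CT0 had 1.20 in replicate 3, below 2.94 to 3.16. Per3 in WT at CT4 had 3.41 in replicate 2, above 2.52 to 2.65.

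The rhythm of 2 of the 3 genes was called different between genotypes by limma's interaction test. The amplitude difference of Per2 was -2.02 in EpiRE minus WT, -2.27 in BRE minus WT, 2.28 in RERE minus EpiRE and 2.53 in RERE minus BRE. That of Per3 was -1.41 in EpiRE minus WT, -1.66 in BRE minus WT, 1.47 in RERE minus EpiRE and 1.72 in RERE minus BRE.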

How the results depend on the processing

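Of 1020 values of 67 results under alternatives, 975 counted as the same in direction and call, 24 lost the call and 21 changed sign. The cause was not tested. Direction was not compared for the rhythm of a ratio, nor for a rhythm called in neither the reported nor the alternative fit. The called rhythms of Per2 and Per3 and their called differences of rhythm and level passed in every alternative run. Replicate numbers share only a number: over 144 pairs of libraries with the same number and CT in different genotypes, deviations correlated with r from -0.34 to 0.49 (median 0.02), and 44 pairs were over 0.1. With the replicate block, 1 of 48 results changed, the rhythm of Per1 in BRE (amplitude 0.66, limma adjusted p = 0.0532). That call was also lost with CT as a factor (0.70, adjusted p = 0.102), a 12 h harmonic (0.66, adjusted p = 0.115), a spread shared over genotypes (0.66, adjusted p = 0.0504) and the glucocorticoid list as a covariate (0.11, adjusted p = 0.892). Leaving out replicates or libraries gave 0.59 to 0.81. With that covariate, chosen after seeing the data, Per1 lost the call in WT (0.27) and in level BRE minus WT (-0.21). Leaving out replicates gave 0.58 to 0.77 for the Per1 rhythm in WT (adjusted p = 0.0913 without replicate 4), -0.69 to -0.34 for its level BRE minus WT, r of 0.44 to 0.86 for Per3 with Per2 in WT (permutation adjusted p of 0.119, 0.615 and 0.0574 without replicates 1, 2 and 4), and 0.14 to 0.28 for the Per3 spread EpiRE minus BRE. Without the EpiRE library that stood apart, Per3 with Per2 in WT had r of 0.67 (permutation adjusted p = 0.0515, through the adjustment over 12 tests).

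Values that were not called changed sign as follows. The Per1 rhythm BRE minus WT was 0.01 with shifted libraries and -0.09 to 0.05 without replicates, and EpiRE minus BRE was 0.03 with the covariate. Without replicates the rhythm difference was -0.03 to 0.37 for Per1 in RERE minus BRE, and in RERE minus WT -0.08 to 0.46 for Per2 and -0.09 to 0.19 for Per3. The Per1 level was -0.36 to 0.11 in EpiRE minus WT and -0.17 to 0.04 in RERE minus EpiRE (0.01 without the library apart). The Per2 level BRE minus WT was -0.03 to 0.20 without replicates, -0.12 with a pseudocount of 1 RPKM and -0.53 with limma-voom, and RERE minus BRE was 0.06 and 0.46 with these. With limma-voom it was -0.16 in EpiRE minus WT and 0.10 in RERE minus EpiRE. In BRE, r was -0.40 to 0.11 for Per1 with Per3 and -0.49 to 0.03 for Per3 with Per2.

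Counts over all genes moved more. Called rhythms numbered 0 to 348 in BRE (125 as reported), 0 to 199 in EpiRE (0), 875 to 2409 in RERE (2136) and 2019 to 4087 in WT (3675). Called differences of rhythm numbered 285 to 711 in BRE minus WT (627), 37 to 245 in EpiRE minus WT (174), 214 to 479 in RERE minus BRE (461), 23 to 166 in RERE minus EpiRE (116) and 0 to 4 in EpiRE minus BRE (0). Without the filter, level counts were 8585 in BRE minus WT (4066), 8025 in EpiRE minus BRE (3737), 7324 in RERE minus BRE (3020), 4310 in RERE minus WT (236), 4303 in EpiRE minus WT (247) and 347 in RERE minus EpiRE (1); each deposited table has its own floor for genes without reads, and its part in these counts was not tested. Leaving out replicates gave level counts down to 1873 in RERE minus BRE, 48 in RERE minus WT, 55 in EpiRE minus WT and 0 in RERE minus EpiRE. Of 18 tests of spread 0 to 3 passed (1 as reported).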
